A study of Danio rerio with 6 samples.

Results

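Claudins are the tight junction proteins examined here. Of 29361 gene rows in the count table, the 28 whose symbol starts with cldn in lower case were taken as the claudins, whatever their level. Claudins cross the membrane, bind claudins of the neighbouring cell and line up into strands that seal the gap between cells or make it selectively permeable to ions. Which claudins a tissue makes sets how leaky its sheet is, so that skin, kidney tubule, gut, myelin and vessel walls each use a different set. Claudin-5 is the claudin best known from endothelium and from the blood-brain barrier.

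The RNA came from cells sorted from zebrafish embryos at 48 hours after fertilisation, with 3 libraries from wild-type fish and 3 from mafba uq4bh mutants. Both genotypes carry a kdrl eGFP transgene, whose promoter is active in endothelium, and the labels call the samples purified endothelial cells. The same labels describe dissociated brains and a gate on pdgfr beta eGFP, so the tissue and the reporter that set the gate are not settled. The number of pooled embryos and the zygosity of the mutants are not stated there. Nor is it stated whether replicate libraries are separate collections of embryos, so each p-value reflects variation among these 6 libraries that could be technical.

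Each library held 43859736 to 52923490 reads on genes. RNA of mafba, which encodes the transcription factor carrying the mutation, differed by -0.04 ± 0.20 (log2, SE), and where the allele lies in the gene was not known here, so this level does not check the genotype. Of 19 endothelial marker genes 18 matched a row, pecam1 being the exception, and all 18 were detected, with a summed level of 718 to 1133 CPM (counts scaled to library size) in wild-type and 690 to 973 CPM in mutant libraries. The 23 matched epidermis markers summed to 9049 to 12330 and 9871 to 14754 CPM, and the 15 kidney tubule (pronephros) markers to 1589 to 2749 and 2111 to 2227 CPM. The defining endothelial markers kdrl, cdh5, tie1, tek and fli1a were thus present, next to higher reads of epithelial genes.

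Of the 28 claudins, 27 had at least 1 read and 19 had reads in every library. Claudins together took 0.316% to 0.474% of the reads on genes, lowest in mutant 2 and highest in mutant 1. Most of these reads came from 3 genes. In each library cldnb, cldn7b and cldni together held 77.6% to 86.3% of the claudin reads. The single row with no read in any library was cldn15b. Reads in 1 library only were found for cldnd (23 reads in wild-type 1), cldn10a (13 reads in mutant 2) and cldn2 (4 reads in mutant 3), so no fold is given for them. These 4 rows did not pass the filter on low counts, and 24 claudins were tested.

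**Figure D1:**
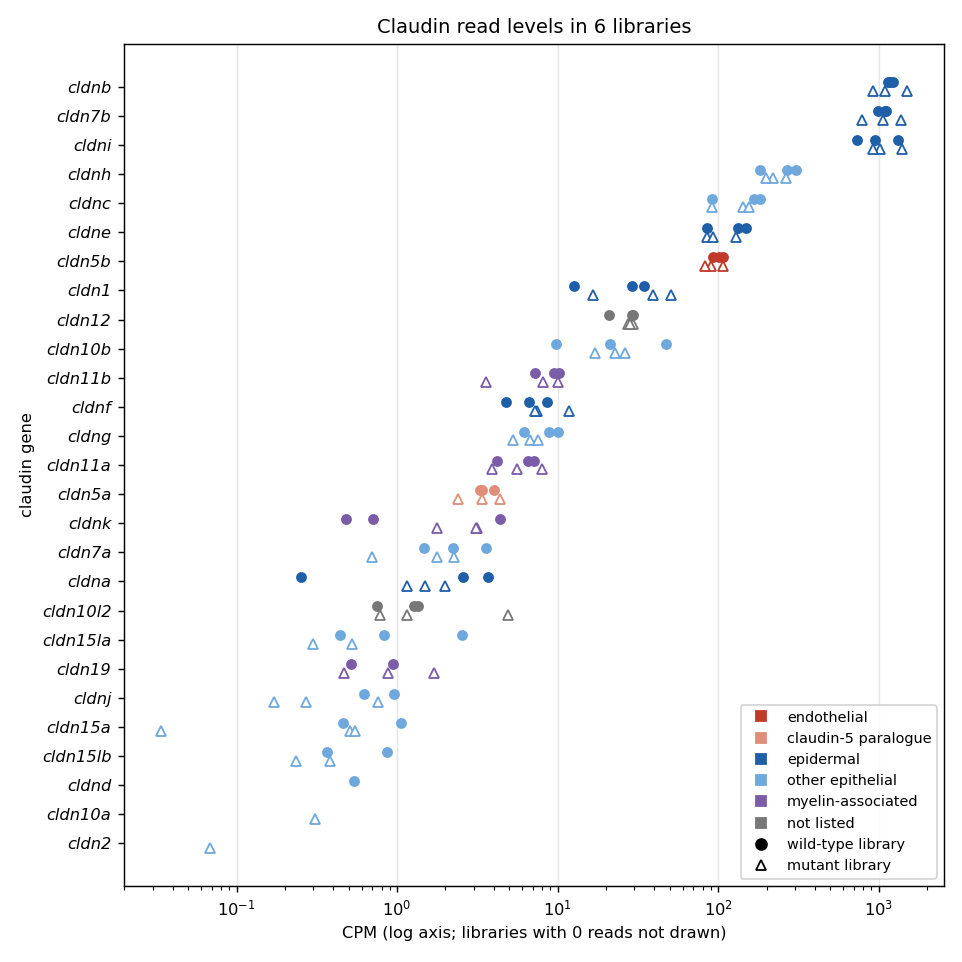
Level of each of the 27 detected claudins (rows, by mean) in CPM on a log axis, with filled circles for the 3 wild-type and open triangles for the 3 mutant libraries, coloured by the class given in the text. The epidermal claudins cldnb, cldn7b and cldni lie between 729 and 1503 CPM, and cldn5b lies between 83.0 and 107 CPM in both genotypes.

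The endothelial claudin cldn5b was detected at a steady level. It stood at 107, 101 and 92.5 CPM in wild-type libraries 1, 2 and 3 and at 90.3, 107 and 83.0 CPM in mutant libraries 1, 2 and 3. The genotypes overlapped, with the highest and the lowest library both among the mutants. Its mean was 100.1 ± 7.39 CPM in wild-type libraries and 93.6 ± 12.5 in mutants (SD, n = 3 each). The log2 difference, mutant minus wild-type, was -0.10 ± 0.15 (SE), and its 95% confidence interval ran from -0.43 to 0.24, or from 0.742 to 1.18 times the wild-type level (edgeR quasi-likelihood, adjusted p = 1.00). Over the 6 libraries its highest level was 1.29 times its lowest, the smallest such ratio of the 19 claudins with reads in every library. The standard deviation of its log2 CPM was smaller than that of all but 7.23% of the tested genes, a spread that also depends on how many reads a gene has. In the same libraries cldn5b had 1.96 to 2.86 times the reads of kdrl, by read number and not per length. The gene kdrl is the Vegf receptor gene whose promoter drives the transgene.

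Its paralogue cldn5a, which in zebrafish is known from the lining of the brain ventricles and from brain vessels, had few reads. It stood at 3.27, 3.39 and 3.99 CPM in wild-type libraries and at 2.38, 4.34 and 3.38 in mutants. The groups overlapped, and the log2 difference was -0.08 ± 0.45 (SE), which changed sign without wild-type 3 and without mutant 1. Reads of cldn5a were 0.0264 to 0.0431 times those of cldn5b, and lower in 6 of 6 libraries. Of 8 listed brain endothelium entries, 5 rows matched, which summed to 123 to 160 CPM in wild-type libraries and 134 to 138 in mutants. Most of this sum was the lipid transporter gene mfsd2ab, with a mean of 100 CPM over the 6 libraries. The glucose transporter gene slc2a1b averaged 22.3 CPM, and abcb4, mfsd2aa and slc2a1a averaged 7.74, 6.35 and 1.46 CPM.

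Among the epidermal claudins cldnb, cldn7b and cldni carried far more reads than cldn5b, while cldn1, cldnf and cldna carried fewer. This list held cldn1, cldna, cldnb, cldne, cldnf, cldni and cldn7b, all of which had reads in every library. The word epidermal is the name of the list, and which cells these reads came from was not tested. Among them cldnb, known from skin and the lateral line, stood at 1178, 1219 and 1141 CPM in wild-type libraries and at 1503, 922 and 1101 in mutants. The wild-type libraries lay close together. Mutant 1 lay above all of them, and mutant 2 and, by less, mutant 3 lay below all of them. Levels of cldn7b, a relative of the epithelial claudin-7 of mammals, were 1098, 1106 and 987 CPM in wild-type libraries and 1367, 790 and 1060 in mutants. As for cldnb, mutant 1 was highest and mutant 2 lowest, but mutant 3 lay within the wild-type range. For cldni, known from zebrafish skin, the values were 953, 1313 and 729 CPM in wild-type libraries and 1403, 1021 and 921 in mutants. Here mutant 1 was again highest and wild-type 3 was lowest. The log2 differences were -0.01 ± 0.18 for cldnb, 0.01 ± 0.19 for cldn7b and 0.16 ± 0.22 for cldni (SE), and the sign of each changed when single libraries were left out.

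The other epidermal claudins had fewer reads, cldne the most and cldna the fewest. The gene cldne, known from the outermost cell layer of the embryo, stood at 84.7, 149 and 132 CPM in wild-type libraries and at 85.2, 92.4 and 129 in mutants, which overlapped. The gene cldn1, whose mammalian counterpart is needed for the water barrier of the skin, stood at 34.3, 29.0 and 12.6 CPM and at 50.8, 39.3 and 16.5 CPM. Its level was low in wild-type 3 and mutant 3 and highest in mutant 1, and the groups overlapped. Mean levels were 6.65 ± 1.92 and 8.80 ± 2.56 CPM for cldnf and 2.17 ± 1.76 and 1.54 ± 0.413 CPM for cldna (wild-type and mutant, SD, n = 3 each). Log2 differences were -0.25 ± 0.22 for cldne, 0.49 ± 0.42 for cldn1, 0.40 ± 0.35 for cldnf and -0.49 ± 0.86 for cldna (SE), and that of cldna became 0.13 without wild-type 3.

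Of the other epithelial claudins, cldnh and cldnc had the most reads. Both are now named as relatives of mammalian claudin-3, cldn3c and cldn3d, in RefSeq. Levels of cldnh were 268, 181 and 304 CPM in wild-type libraries and 219, 198 and 264 in mutants. For cldnc they were 167, 91.6 and 183 CPM in wild-type libraries and 143, 91.8 and 156 in mutants. Both genes were lowest in library 2 and highest in library 3 of each genotype. Their ratio, cldnh over cldnc, varied less than either gene across libraries, from 1.53 to 2.15, and the log2 differences were -0.15 ± 0.19 and -0.18 ± 0.25 (SE), both of which changed sign without wild-type 3. A further member, cldn10b, is related to the mammalian claudin-10 that forms ion-selective pores. It stood at 47.6, 9.78 and 21.2 CPM in wild-type libraries and at 26.2, 22.8 and 17.1 in mutants, so that wild-type 1 and wild-type 2 enclosed all the mutants. Its log2 difference of -0.25 ± 0.45 (SE) became 0.51 without wild-type 1. Its neighbour cldn10l2 overlaps it in the RefSeq table, which is of another build than the counts. Whether reads of the pair were fully separable is thus not known.

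Members of this class tied to gut and ear had few reads. The intestinal claudin gene cldn15la stood at 0.824, 2.54 and 0.443 CPM in wild-type libraries and at 0.298, 0 and 0.527 in mutants. It had the smallest p of the claudins (unadjusted p = 0.216, edgeR), with a log2 difference of -2.19 ± 1.68 (SE) that became -1.19 without wild-type 2, its highest library. Of 15 gut and liver markers, 12 were detected and summed to 132 to 156 CPM in wild-type libraries and 132 to 180 in mutants, while fabp10a, a defining liver gene, fabp1b.1 and gata6 were at 0 in all 6. Both cldn15a and cldn15lb, also of the claudin-15 group, and cldnj, needed for otolith formation in the ear, stayed at or below 1.05 CPM in each library. Levels of cldng were 8.35 ± 1.99 and 6.51 ± 1.15 CPM and of cldn7a 2.42 ± 1.08 and 1.58 ± 0.798 CPM (wild-type first, SD of 3 libraries).

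Myelin-associated claudins were low. The gene cldnk, a marker of oligodendrocytes and Schwann cells in zebrafish, stood at 0.707, 0.481 and 4.35 CPM in wild-type libraries and at 1.76, 3.13 and 3.09 in mutants. Wild-type 3 was highest and the other wild-type libraries lowest, and the log2 difference of 0.52 ± 0.80 (SE) became 2.16 without wild-type 3. The relatives of mammalian claudin-11, which forms the strands of central myelin, stood at 5.95 ± 1.56 and 5.83 ± 2.07 CPM for cldn11a and 8.95 ± 1.51 and 7.27 ± 3.32 CPM for cldn11b (wild-type and mutant, SD, n = 3). The level of cldn19 was at most 1.68 CPM. All 10 glia and myelin markers were detected, with a summed level of 213 to 265 CPM across wild-type libraries and 197 to 220 CPM across mutants. The glial fatty acid binding protein gene fabp7a (98.2 to 156 CPM) and the myelin gene mbpb (42.7 to 69.7 CPM) had the most reads, while the myelin genes mbpa and mpz had at most 0.385 and 1.25 CPM. The part of glial cells in these claudin levels was not tested. Outside these classes, cldn12 stood at 20.8, 29.2 and 29.7 CPM in wild-type libraries and at 29.6, 27.5 and 28.3 in mutants, which overlapped. The remaining gene, cldn10l2, stood at 1.27, 1.35 and 0.751 CPM in wild-type libraries and at 1.15, 4.89 and 0.781 in mutants. Its log2 difference of 1.01 ± 0.85 (SE) became -0.22 without mutant 2, the single high library.

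Within each library cldn5b ranked 5 to 7 among the claudins by reads. No transcript lengths of the build behind the counts were at hand, so these are comparisons of read numbers, not of levels per length. Reads of cldnb were 8.58 to 16.6 times those of cldn5b, those of cldn7b 7.35 to 15.1 times and those of cldni 7.88 to 15.5 times. Reads of cldnh were 1.80 to 3.28 times as many. All 4 genes lay above cldn5b in 6 of 6 libraries. Both cldn1 (0.136 to 0.563 times) and cldn12 (0.194 to 0.341 times) lay below it in 6 of 6. For each of these 6 genes and for cldn5a the exact sign-flip test over the libraries gave p = 0.031, the smallest that 6 libraries allow (two-sided, adjusted p = 0.0402 over 9 pairs). Apart from cldn5a, the genes compared were picked for having the most reads in these same libraries. A sign-flip p of 0.031 is reached whenever the direction is the same in 6 of 6 libraries, whatever the spread of the ratios. For the picked genes the p-values are thus no independent support for the order. Reads of cldnc (0.854 to 1.98 times, above cldn5b in 4 of 6 libraries) and of cldne (0.789 to 1.56 times, above in 3 of 6) did not differ from those of cldn5b beyond the spread (exact p = 0.125 and 0.375). Within this order cldnb, cldn7b and cldni also overlapped one another across libraries.

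**Figure D2:**
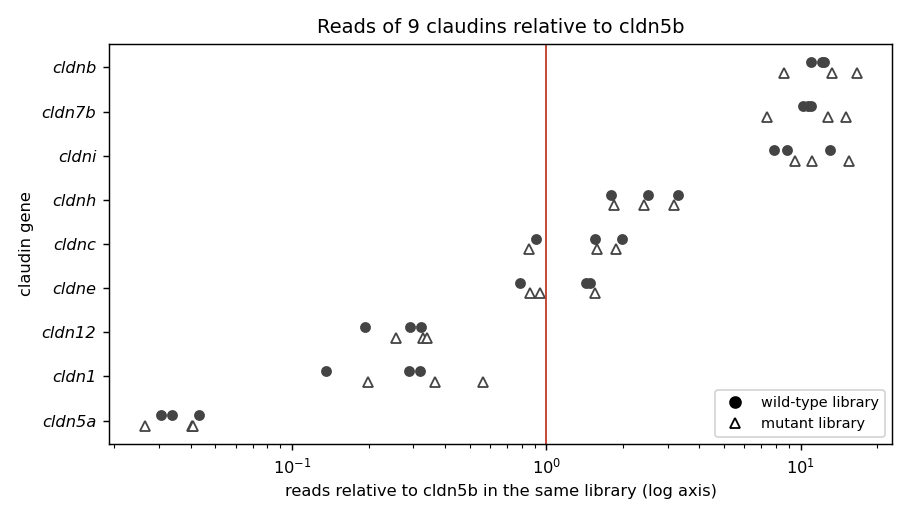
Reads of 9 claudins divided by the reads of cldn5b in the same library, on a log axis, with circles for wild-type and triangles for mutant libraries and a line at equal reads. The genes cldnb, cldn7b, cldni and cldnh lie above cldn5b in 6 of 6 libraries, cldnc and cldne lie on both sides, and cldn12, cldn1 and cldn5a lie below.

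Summed over the epidermal claudins, reads were 31.3, 38.0 and 32.6 times those of cldn5b in wild-type and 48.9, 26.7 and 39.0 times in mutant libraries. Mutant 1 had the highest and mutant 2 the lowest sum relative to cldn5b, and the genotypes overlapped. On the log2 scale cldn5b over the epidermal sum was -5.08 ± 0.15 in wild-type and -5.21 ± 0.44 in mutant libraries (SD, n = 3 each). Against the median epidermal claudin in place of the sum, the log2 ratio was -0.18 ± 0.44 (SD, n = 6), because the list holds genes on both sides of cldn5b. The median gene was cldne in each library, so this value repeats the comparison with cldne and is not a further one. For the 9 single genes the log2 ratio to cldn5b differed between genotypes by -0.14 to 0.57. The exact permutation test gave p = 0.4 or more for each (two-sided, adjusted p = 1 over 9 pairs), where 3 libraries against 3 cannot go below 0.1. In sorted bulk RNA, fewer cells of a type and less RNA per cell cannot be told apart. The summed epidermis markers were highest in mutant 1 (14754 CPM), as the epidermal claudin sum was (4418 CPM), but lowest in wild-type 3 (9049 CPM), where the claudin sum (3014 CPM) was second to mutant 2 (2873 CPM) as the lowest, and their part in the claudin levels was not tested.

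No claudin passed the test of mutant against wild-type libraries. With edgeR's quasi-likelihood test and p-values adjusted over all genes (Benjamini-Hochberg), the comparison called 0 of 24 claudins, beside 0% of 19381 genes tested. At an unadjusted p under 0.05 it called 0 of 24 claudins, beside 1.57% of all genes. DESeq2 and limma-voom also called 0 claudins at either threshold. Over all 19381 genes they called 0 at the adjusted threshold, and 358 and 321 at the unadjusted one. The genotypes overlapped in all 24 tested claudins, beside 6.74% of all genes tested in which they did not. At these shares few of 24 genes would be counted, so the claudins are not set apart from all genes. Fitted values were higher in mutants for 8 and lower for 16 claudins, with a median of -0.12, beside 9546 higher and 9835 lower and a median of -0.0047 over all genes. The split was 4 higher and 3 lower among the epidermal claudins and 0 higher and 9 lower among the tested other epithelial claudins (median -0.40). That median is the value of cldnj, which averaged 0.464 CPM, and cldn15la, cldn15a and cldn15lb averaged 0.772, 0.434 and 0.308 CPM. Under a strict filter of 1 CPM in each library, 0 other epithelial claudins were higher and 4 lower, with a median of -0.22. The split of the other epithelial claudins was 3 higher and 6 lower in limma-voom and also without wild-type 3. The split of all claudins was 12 higher and 12 lower without wild-type 2, wild-type 3 or mutant 3.

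The precision of these differences varied between claudins and was not in the order of their reads. The smallest standard error was that of cldn5b (0.15), below those of cldnb, cldn7b and cldni. For the 3 claudins with the most reads the 95% intervals reached from 0.755 to 1.56 times the wild-type level. For cldnh, cldnc and cldne they reached from 0.602 to 1.30 times. For cldn1 the interval ran from 0.738 to 2.67 times. For the claudin-15 genes with reads in both genotypes the intervals spanned log2 differences from -6.19 to 4.17.

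**Figure D3:**
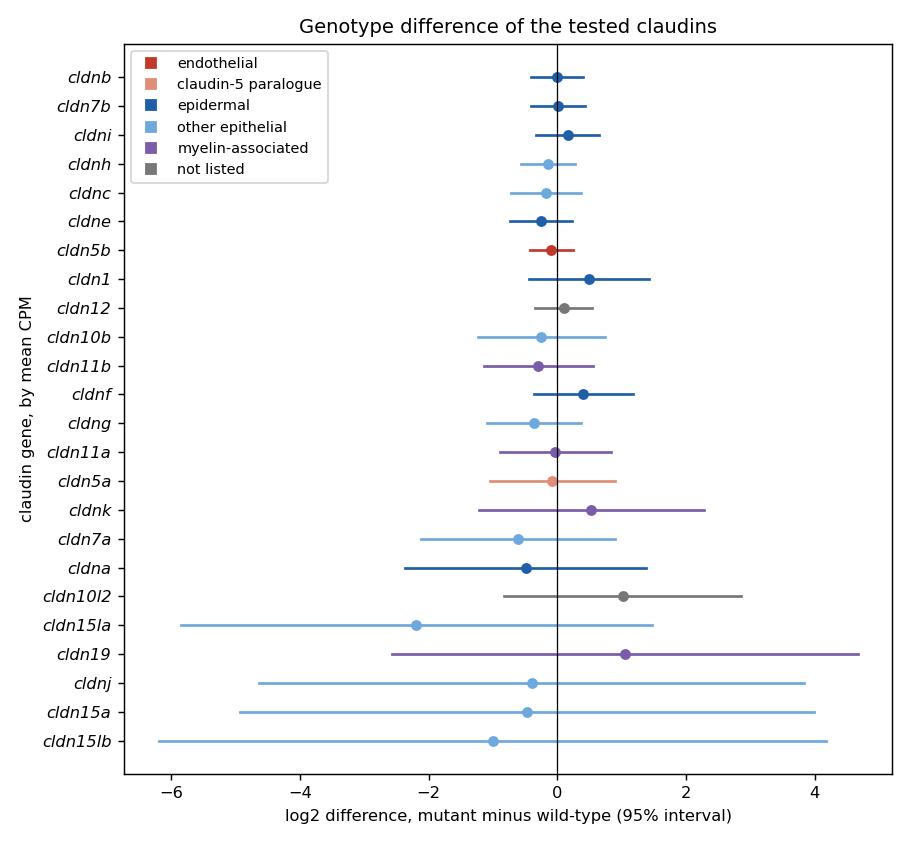
Log2 difference, mutant minus wild-type, of the 24 tested claudins (points) with 95% confidence intervals from the edgeR fit (lines), ordered by mean CPM and coloured by class. The interval includes 0 for each, is narrowest for cldn5b (-0.43 to 0.24) and is widest for cldn15lb at the bottom (-6.19 to 4.17).

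For cldn1, cldnh and cldnc, as for other claudins such as cldn5b and cldnb, libraries of one genotype lay further apart than the genotype means did. The levels of cldn1 fell in the order mutant 1, mutant 2, wild-type 1, wild-type 2, mutant 3 and wild-type 3. The same order held for tp63, which encodes the transcription factor of the basal epidermis, at 92.1, 85.0, 69.9, 57.8, 40.3 and 36.4 CPM. Of the 23 epidermis markers, 2 had this order, tp63 and the adhesion gene epcam, and the other 21 did not. Relative to the mean over the libraries, cldn1 ranged from -1.12 to 0.90 and tp63 from -0.72 to 0.62 on the log2 scale. Levels of cldnh and cldnc were highest in wild-type 3 and lowest in wild-type 2. The kidney tubule genes cdh17, a cadherin, and slc12a3, a sodium chloride transporter, were also lowest in wild-type 2 (413 and 176 CPM), as were 5 of the 15 pronephros markers in all, while gata3 and trpm7 were highest there. Levels of slc12a3, alone among the 15 pronephros markers, were highest in wild-type 3 (296 CPM). Those of cdh17 were highest in wild-type 1 and next highest in wild-type 3 (671 and 659 CPM). In mutant 2 cldnh and cldnc stood at -0.25 and -0.54 relative to their means (log2), and cdh17 and slc12a3 at -0.15 and -0.20. These gene pairs were chosen after their values were seen, and the part of epidermal or kidney cells in the claudin levels was not tested. For cldn5b the range was -0.22 to 0.16, while fli1a, an endothelial transcription factor gene, ranged from -0.35 to 0.29 and kdrl from -0.23 to 0.44. Of the 18 endothelial markers, sox7 alone had a smaller ratio of highest to lowest library (1.27) than cldn5b (1.29).

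**Figure D4:**
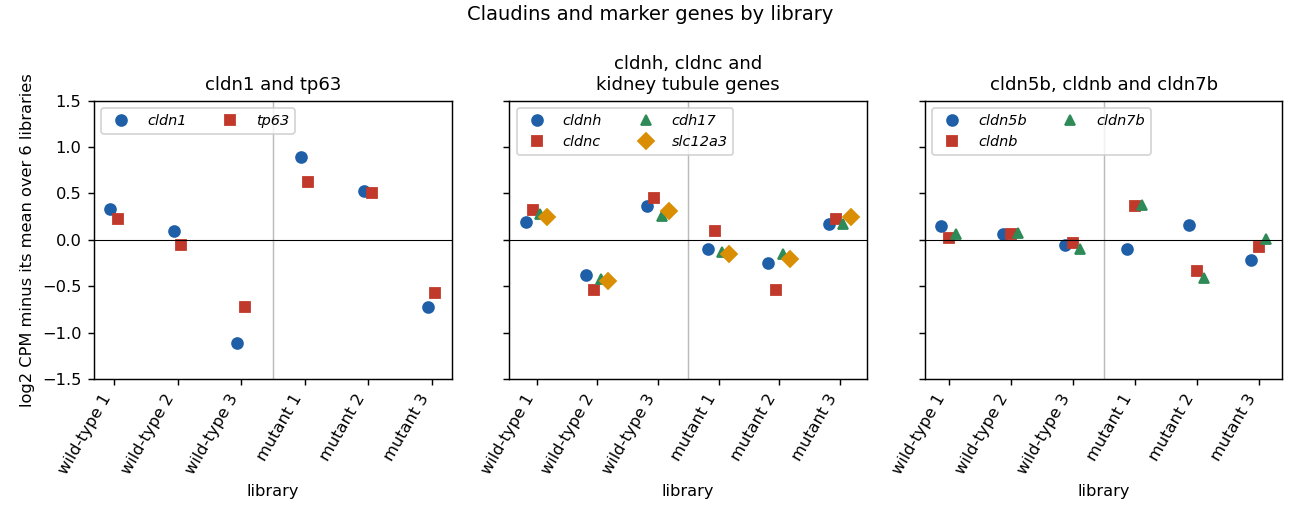
Log2 CPM of claudins and marker genes minus each gene's mean over the 6 libraries, by library, with a vertical line between wild-type and mutant. Left, cldn1 and tp63 share their order; middle, cldnh, cldnc, cdh17 and slc12a3 are each lowest in wild-type 2; right, cldn5b stays within -0.22 to 0.16 while cldnb and cldn7b are high in mutant 1 and low in mutant 2.

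Claudin genes that are neighbours could differ widely in level. All 28 symbols matched a gene in the RefSeq table of the assembly GRCz12tu, which is not the build of the counts. That table was used only for names, gene order and the overlap of cldn10b with cldn10l2. One uninterrupted run of claudins there holds cldnj, cldne, cldnf and cldna, whose mean levels were 0.464, 112, 7.73 and 1.86 CPM. Another holds 7 claudins, of which cldnh, cldnc, cldnb and cldnd are members here, with mean levels of 239, 139, 1177 and 0.0902 CPM. Of these, cldnh and cldnc lie side by side and had the levels nearest each other. Both cldn10b (24.1 CPM) and cldn10l2 (1.70 CPM) also lie side by side.

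Other tight junction genes were likewise detected and did not pass. The list held the scaffold, occludin-family, junctional adhesion and polarity genes that accompany claudins at the junction. Of its 61 entries, older names included, 45 rows matched and 41 were tested. The edgeR test called 0 of 41, beside 0% of all genes, and 2 had an unadjusted p under 0.05, beside 1.57% of all genes. These were magi1b and tjp2a (adjusted p = 1.00 for both, edgeR). The scaffold gene magi1b stood at 55.3, 49.7 and 39.6 CPM in wild-type libraries and at 31.8, 32.0 and 35.9 in mutants, a log2 difference of -0.54 ± 0.18 (SE). All mutants lay below all wild-type libraries. The zonula occludens gene tjp2a stood at 65.3, 68.2 and 54.7 CPM in wild-type libraries and at 99.9, 96.7 and 62.0 in mutants, a log2 difference of 0.46 ± 0.20 (SE). Mutants 1 and 2 were above all wild-type libraries and mutant 3 was not. The polarity gene pard6a differed by -0.67 ± 0.31 and the cingulin gene cgna by -0.55 ± 0.33 (log2, SE). Levels of pard6a were 35.3, 41.5 and 40.9 CPM in wild-type libraries and 30.6, 11.5 and 31.8 in mutants. Its difference became -0.33 without mutant 2, the single low library. Levels of cgna were 7.37, 8.49 and 10.5 CPM in wild-type libraries and 6.01, 4.70 and 7.31 in mutants. The genotypes did not overlap in 4 of the 41, beside 6.74% of all genes. Mutants lay below in magi1b, pard6a and cgna, 3 of 41 beside 3.36% of all genes, and above in marveld3, 1 of 41 beside 3.38%.

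The tight junction partners with the most reads were amotl2b, tjp3, oclna and f11r, and which cells these reads came from was not tested. The angiomotin-like gene amotl2b stood at 545 ± 159 and 487 ± 95.2 CPM, the zonula occludens gene tjp3 at 378 ± 38.2 and 407 ± 67.1 CPM, the occludin gene oclna at 230 ± 27.6 and 253 ± 32.7 CPM and the junctional adhesion molecule gene f11r at 207 ± 21.4 and 229 ± 34.9 CPM (wild-type first, SD of 3 libraries). The log2 differences of these 4 lay between -0.16 and 0.14. Levels of tjp3, oclna and f11r were each highest in mutant 1 and lowest in wild-type 3. In 6 of 6 libraries these 3 genes had more reads than cldn5b and fewer than cldnb, again by read number and not per length.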

How the data were processed

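Libraries of sorted cells, 3 wild-type and 3 mutant, were sequenced after RNA amplification, per the labels' protocols. The authors deposited whole-number read counts per gene symbol, not normalised. Per the submitters' processing notes, HTSeq, STAR and bcl2fastq were used with danRer7 or Zv9. No version, annotation or strand setting was found, so how reads over overlapping or antisense genes were assigned or dropped is not known. The 5 summary rows closing each file, 22.1% to 28.1% of its entries, were left out; 13.6% to 20.3% were reads with no unique place, which near-identical genes lose. The joined table held the same 176166 values.

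Counts were fitted on all genes in R 4.3.3 with edgeR 4.0.16 (filterByExpr, TMM, robust quasi-likelihood, no block, Benjamini-Hochberg, threshold 0.05), which kept 19381 genes. CPM uses TMM-scaled library sizes. Alternatives used DESeq2 1.42.0 and limma 3.58.1; figures used matplotlib 3.10.9. Claudins, classes and lists were chosen with earlier results of these data known. Values per library are given for cldn5b, cldn5a and the 8 other claudins with the most reads. They are also given for the 4 claudins with the smallest p and those read in 1 genotype only. For tight junction genes they are given for the 4 with the smallest p, and means for the 4 with the most reads. Values for cldn10b and cldnk, and the marker genes set beside claudins, were added after their values were seen. Division by coding length was planned, but no lengths were at hand, and the planned tests of ratios to a sum of members are not given; single genes were tested instead, which was chosen after seeing the data. Rows with claudin symbols in capitals were added as an alternative after seeing the data.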

Additional observations from a re-analysis of the deposited data

How the results depend on the processing

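Counts of called claudins and tight junction genes were 0 under each scaling, filter, tool and left-out library. They were also 0 with capital CLDN rows added. Over all genes tested 0 were called in each setting too, so these counts are not particular to junction genes. The lowest adjusted p of a claudin was 0.9997 (edgeR, without wild-type 3). The strict filter kept 15 claudins and no filter 27. Of 383 alternative log2 differences of 24 claudins and 4 partner genes, 351 kept the sign and 32, in 15 claudins, did not. In limma-voom cldn10b was 0.004477, cldn15a 0.08866, cldn7b -0.02007, cldna 0.007059 and cldnj 0.64. Under a replicate block on the library number cldn7b was -0.0211, cldna 0.04122 and cldnj 0.62, and 0 claudins were called. With that block 523 of 19381 genes had an unadjusted p under 0.05, against 305 without it. The count of genes under that p was 929 of 20087 without mutant 3, 483 of 20358 without wild-type 1 and 398 of 20132 without wild-type 3. Beside these counts, 1 of 24 claudins was under it with the block and without mutant 3 (cldn1), without wild-type 1 (cldne) and without wild-type 3 (cldnk). Such single genes are not read as a result about claudins. No label says what a shared number stands for. Deviations of same-numbered libraries correlated at 0.0598, 0.0211 and 0.140 across tested genes and at -0.0624, 0.0473 and -0.127 across tested claudins. Of 6 libraries, 4 correlated best with their own number across tested genes and 0 across tested claudins. With each library left out, ranges were -0.64 to 0.51 for cldn10b, -0.22 to 1.42 for cldn10l2, -0.33 to 0.19 for cldn11a, -0.61 to 0.02414 for cldn11b, -0.04759 to 0.19 for cldn12, -1.06 to 0.64 for cldn15a, -1.80 to 0.15 for cldn15lb, -0.30 to 0.12 for cldn5a, -0.20 to 0.19 for cldn7b, -1.02 to 0.13 for cldna, -0.22 to 0.14 for cldnb, -0.42 to 0.0235 for cldnc, -0.33 to 0.01428 for cldnh, -0.03956 to 0.41 for cldni and -1.24 to 0.37 for cldnj. The cause was not tested. The log2 ratio of cldn5b to the epidermal sum ranged from -5.23 to -5.05 without single libraries. Against the median epidermal claudin, which was cldne in each library, the log2 ratio of cldn5b was -0.18. The genotype difference in the ratio to the epidermal sum, -0.13, ranged from -0.37 to 0.07 without single libraries. A replicate block gives the same mean difference by construction and is no further check on it.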

Other observations

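Further claudin-like rows lay outside the 28. The table lists 13 rows whose symbol starts with CLDN in capitals, of which 5 had enough reads for the edgeR test, 8 did not and 3 of those 8 were at 0 in all libraries. Of the 5 tested, 0 passed, beside 0% of all genes, and 0 had an unadjusted p under 0.05, beside 1.57%. Those with the most reads were CLDN23_(1_of_2), at 20.8 ± 7.50 and 21.0 ± 1.40 CPM, CLDND1_(2_of_2), a claudin domain gene and not a claudin proper, at 16.3 ± 3.33 and 15.3 ± 6.01 CPM, and CLDN17 at 10.4 ± 1.35 and 11.2 ± 3.94 CPM (wild-type first, SD of 3 libraries). A row listed as zgc:136892, which the RefSeq table names cldn30, stood at 10.6 ± 3.27 and 11.95 ± 1.25 CPM, and zgc:153311, named cldn33b there, at 1.32 ± 0.492 and 1.10 ± 1.75 CPM. The genotypes overlapped in each of these 5 rows, which were chosen after their values were seen.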
